A study of Homo sapiens with 192 samples.

Results

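A pair of microsatellite instable and a pair of microsatellite stable colorectal cancer cell lines grown in 3D were compared by RNA sequencing. HCT116 and LS174T are the instable (MSI) lines, and HT29 and LS513 the stable (MSS) lines. Each line gave 3 libraries, so the comparison held 6 libraries against 6, which are 12 of the 24 libraries of the series. The other 12 are the same lines grown in 2D. The labels name no engineered allele and no treatment. By the study's methods HCT116 was kept in McCoy medium and the other lines in DMEM, so medium and line cannot be told apart for HCT116. The sample labels name the line and the growth condition but not the microsatellite status, which is taken from the study's text on purinergic genes and from what is generally known of these lines. A sentence of the study on the clustering of the lines can be read to pair them differently. The labels number the libraries of a line but do not say that they came from separate cultures, so the spread between them may be technical. A gene was a member of the comparison when every library of one pair exceeded every library of the other. Of the 58243 genes listed, 19387 were tested and 3053 met this rule.

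Microsatellites are short tandem repeats at which DNA polymerase slips. The mismatch repair system normally removes the resulting loops in a series of steps, from recognition of the mismatch, in which MSH6 and MSH3 take part, to its removal, in which PMS2 takes part. When this system fails, repeats gain and lose units in each cell division, and a run of one base inside a coding exon shifts the reading frame once a base is lost. Transcripts with a premature stop that such a shift creates can be degraded by nonsense-mediated decay. Colorectal tumours that keep mismatch repair are more often chromosomally unstable, with gains and losses of whole arms.

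Gene levels are given as CPM, the count of a gene relative to the total of its library, scaled by the trimmed mean of M values (TMM), a factor that corrects for differences in library composition. Counts of 8 technical replicates were summed per library, of which 7 were used for 1 of the HT29 libraries. The 12 libraries held 28520528 to 34277421 counts, and 3 counts corresponded to 0.0875 to 0.105 CPM, which is the floor below which a gene was not distinguishable from 0. The LS174T libraries differed more among themselves than those of other lines, and their second library stood apart, with a TMM factor of 0.933 against 1.04 and 1.06. Counts without that library are given where it matters. Of the 19 markers of blood, vessel and stromal cells, 6 had at most 3 counts in every 3D library, among them PTPRC, CD3E, DCN and LUM. The other markers of this list exceeded 3 counts in at least 1 of these libraries, so the list as a whole was not absent. The summed level of the 19 was 18.2 to 80.4 CPM in the MSI libraries and 62.02 to 2600.3 CPM in the MSS libraries. The 10 epithelial markers together reached 4595 to 6622 CPM in the MSI libraries and 12541 to 16053 CPM in the MSS libraries. The part of these levels in the results was not tested.

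In 3D, 1643 genes lay higher in all 6 MSI libraries than in any MSS library (8.47% of the tested genes), and 1410 lay higher in all 6 MSS libraries (7.27%). Together these are 15.7% of the tested genes. Protein-coding genes made up 1300 of the first group and 1217 of the second. In 1431 and 1176 of them, respectively, the lines within each pair differed by less than the pairs did. The rule favours this by construction, since the same libraries picked the genes. The gap was mostly narrow. The lowest library of the higher pair exceeded the highest library of the lower pair by at least 1 log2 unit for 301 and 259 genes, and by at least 2 units for 129 and 92. At the edge of the rule, GAPDH counted as higher in the MSI pair with its lowest MSI library at 5419 CPM against a highest MSS library at 5418 CPM, while ELAC1 missed it at 8.094 against 8.098 CPM. On the other side MYL12B was left out at 536.6 against 536.7 CPM. The split between the directions depended on the scaling: without TMM it was 1963 against 1142 (63.2% higher in MSI, against 53.8% with TMM).

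How much of this can be credited to microsatellite status is limited by the number of lines. The quasi-likelihood test of edgeR fitted over libraries called 2922 genes higher in the MSI pair (15.1% of tested genes) and 2496 higher in the MSS pair (12.9%), requiring a Benjamini-Hochberg adjusted p below 0.05 together with a change of more than 1 log2 unit. That fit measures the spread between libraries of a line. With the 3 libraries of each line summed, so that 2 lines stood against 2, edgeR called 0 genes in either direction. The smallest adjusted p was then 0.788, and 981 genes had an unadjusted p under 0.05 (460 higher in MSI, 521 higher in MSS). Of these, 963 were among the genes without overlap, but both use the same libraries, so the shared number tests nothing. Limma with voom weights also called 0 genes, with 339 and 512 at an unadjusted p under 0.05. DESeq2 on the same 4 columns called 549 and 381 at an adjusted p under 0.05. Status cannot be told apart from any other feature that HCT116 and LS174T share and HT29 and LS513 lack. The values below therefore describe these pairs of lines. Adjusted p-values are not given for genes picked by the rule, since both use the same contrast.

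Some genes were near silent in one pair. In all, 69 genes had at least 1 CPM in each MSI library and at most 3 counts in each MSS library, and 27 of these had no count in any MSS library. The reverse held for 12 genes, none of which was at 0 in all 6 MSI libraries.

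**Figure D1:**
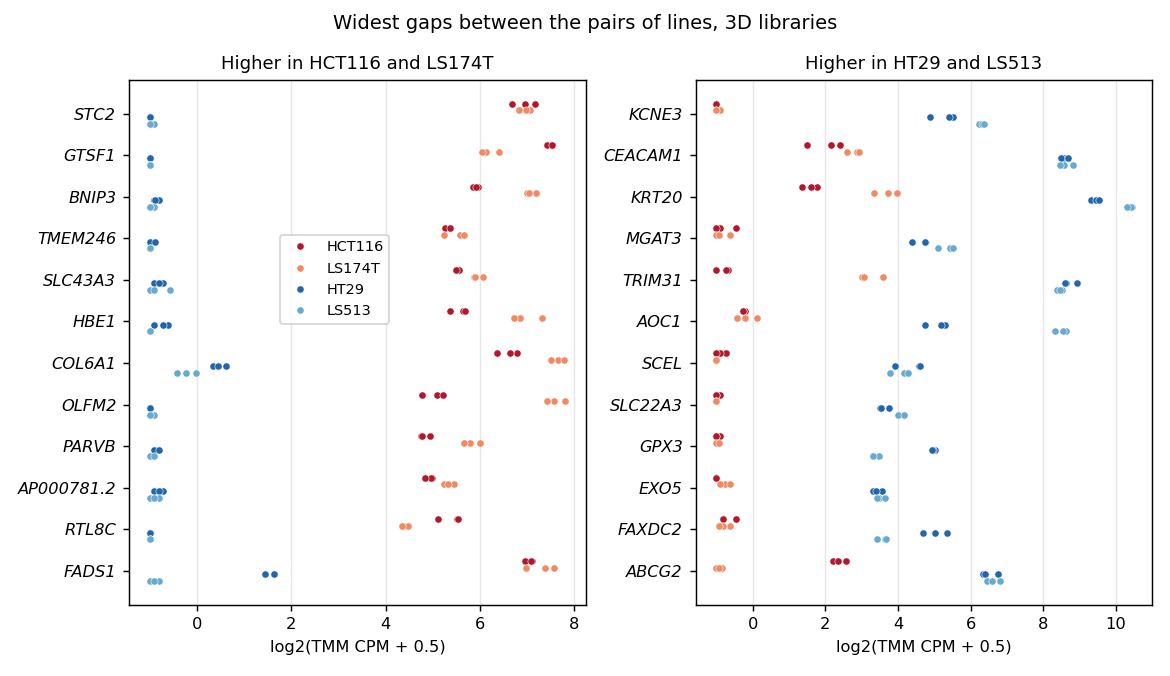
Levels of the 24 genes with the widest gap between the pairs in 3D, as log2(TMM CPM + 0.5) on the horizontal axis; each point is 1 library, coloured by line, 3 per line. Most of the 12 genes on the left lie near the bottom of the scale in HT29 and LS513, with FADS1 higher in HT29 at 2.59, 2.59 and 2.21 CPM, while CEACAM1 and KRT20 on the right are measurable in all 4 lines.

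STC2, which encodes the secreted glycoprotein stanniocalcin 2, was at 102 to 144 CPM (median 125) in the MSI libraries and had 0 to 1 counts in the MSS libraries. GTSF1, known for its part in transposon silencing in germ cells, was at 65.7 to 183 CPM (median 128) in the MSI libraries and had no count in the 6 MSS libraries. RTL8C, a gene derived from a retrotransposon, was likewise without a count in the MSS libraries and at 19.99 to 46.1 CPM (median 27.9) in the MSI libraries. BNIP3, a mitochondrial protein that promotes mitophagy under low oxygen, was at 57.5, 61.5 and 59.9 CPM in HCT116 and 127, 145 and 132 CPM in LS174T, against 0 to 2 counts per MSS library. None of these 4 genes, which were picked for their wide gaps, came near overlap between the pairs.

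COL6A1, a chain of collagen VI, was detected in every library, at 81.5 to 219 CPM (median 146) in the MSI pair against 0.243 to 1.03 CPM (median 0.627) in the MSS pair (log2 fold change 7.93 ± 0.23, SE). FADS1, the delta-5 fatty acid desaturase, was at 124 to 189 CPM (median 136) in the MSI pair. The MSS lines differed from each other for FADS1, with 2.59, 2.59 and 2.21 CPM in HT29 and at most 2 counts in LS513. OLFM2, an olfactomedin, also differed within its higher pair, with 33.4, 36.5 and 26.7 CPM in HCT116 and 190.4, 224 and 171 CPM in LS174T, and had 0 to 1 counts in the MSS libraries. TMEM246, a GPI-anchor glycosyltransferase, was at 37 to 50.3 CPM (median 40.7) in the MSI pair with 0 to 1 counts in the MSS pair. PARVB, an actin-binding protein of focal adhesions, was at 26.6 to 63.5 CPM (median 40.2) with 0 to 2 counts in the MSS libraries.

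SLC43A3, a nucleobase transporter, was at 44.3 to 66.1 CPM (median 52) in the MSI pair and had 0 to 5 counts in the MSS pair. AP000781.2, also among the 12, shares 95.5% of its exonic bases on the same strand with SLC43A3 and PRG2, so the counts of these genes cannot be separated with certainty. HBE1, the embryonic epsilon globin, was at 40.8 to 158 CPM (median 78.1) in the MSI pair and 0 to 0.151 CPM in the MSS pair. The annotation places 90% of its exonic bases within transcripts of AC104389.4, HBG2 and OR51B5, which leaves the source of these reads uncertain.

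Among the genes higher in the MSS pair, several are known from differentiated colonic epithelium. KRT20, the keratin of differentiated intestinal cells, was at 640.4 to 1382 CPM (median 995) in the MSS libraries and 2.07 to 15.2 CPM (median 6.27) in the MSI libraries (log2 fold change -7.42 ± 0.14, SE). CEACAM1, a cell adhesion molecule of the carcinoembryonic antigen family, was at 351 to 454 CPM (median 379) against 2.31 to 7.13 CPM (median 5.15) (log2 fold change -6.31 ± 0.14). Its family members are closely related in sequence, so reads may have been shared among them. TRIM31, an E3 ubiquitin ligase, was at 334 to 484 CPM (median 376) in the MSS pair, and in the MSI pair it was at 7.51, 11.5 and 7.8 CPM in LS174T but at most 4 counts in HCT116.

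KCNE3, a regulatory subunit of potassium channels of the colonic crypt, was at 29 to 81.4 CPM (median 59.6) in the MSS pair and had 0 to 1 counts in the MSI pair. AOC1, the enzyme that degrades histamine, was at 38.4, 26.2 and 36 CPM in HT29 and 396, 375 and 317 CPM in LS513, against 0.246 to 0.583 CPM in the MSI pair. The MSS lines thus lay far apart from each other for AOC1, though both above the MSI lines. MGAT3, which adds the bisecting N-acetylglucosamine to N-glycans, was at 20.4 to 44.9 CPM (median 29.98) with 0 to 7 counts in the MSI libraries. SCEL, a precursor of the cornified envelope, was at 13.2 to 23.9 CPM (median 18.1) with 0 to 3 counts in the MSI libraries.

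Of the remaining genes with wide gaps, ABCG2, a drug efflux transporter, was at 81 to 112 CPM (median 91.1) in the MSS pair, 4.12, 4.57 and 5.45 CPM in HCT116 and at most 2 counts in LS174T. SLC22A3, an organic cation transporter, was at 10.8 to 17.3 CPM (median 14.2) with 0 to 1 counts in the MSI libraries. GPX3, the secreted glutathione peroxidase, was at 9.51 to 31.9 CPM (median 20.3) with 0 to 1 counts, FAXDC2, a fatty acid hydroxylase domain protein, at 10.2 to 40.1 CPM (median 18.7) with 1 to 7 counts, and EXO5, a DNA exonuclease, at 9.5 to 11.9 CPM (median 10.4) with 0 to 5 counts in the MSI pair.

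Genes listed for mismatch repair were then examined. The list is not limited to the genes that recognise mismatches and also holds PCNA, LIG1 and the RFC, RPA and POLD genes, which serve DNA replication in general. Of 23 mismatch repair genes, all of which were tested, 0 were higher and 4 were lower in all MSI libraries, and the median log2 fold change was 0.04, against 0.08 over all tested genes. The 4 are 17.4% of the list, beside 7.27% over all tested genes. Without TMM they were 2 (8.7%), beside 5.89%. By the between-library fit 0 were called higher in the MSI pair and 3 lower, beside 15.1% and 12.9% over all tested genes.

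PMS2, an endonuclease of the system, was at 13.4 to 20.2 CPM (median 18.1) in the MSI pair and 10.8 to 17.7 CPM (median 13.1) in the MSS pair, with overlap. MSH6, which recognises single-base mismatches, overlapped as well (63.4 to 151 against 86.8 to 115 CPM).

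MSH3, which recognises larger loops, was lower in the MSI pair, at 3.56, 3.33 and 2.94 CPM in HCT116 and 12, 11 and 13.9 CPM in LS174T, against 16.3 to 29.2 CPM (median 20.9) in the MSS pair (log2 fold change -1.76 ± 0.09, SE). POLD3 and POLD4, subunits of the polymerase that fills the repaired gap, were at 20.9 to 25.2 CPM (median 23.3) and 24.3 to 43.6 CPM (median 32.2) in the MSI pair against 34 to 52.5 CPM (median 41.4) and 71.6 to 121 CPM (median 94.9) in the MSS pair. HMGB1, a chromatin protein that takes part in excision, was at 203 to 292 CPM (median 208) against 293 to 399.99 CPM (median 351). HMGB1 lies on chromosome 13, described below. The calls for MSH3 and HMGB1 depended on the scaling: MSH3 overlapped without TMM, and HMGB1 without TMM and with the size factors of DESeq2. POLD4 shares 21.3% of its exonic bases with a neighbouring gene on its strand.

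**Figure D2:**
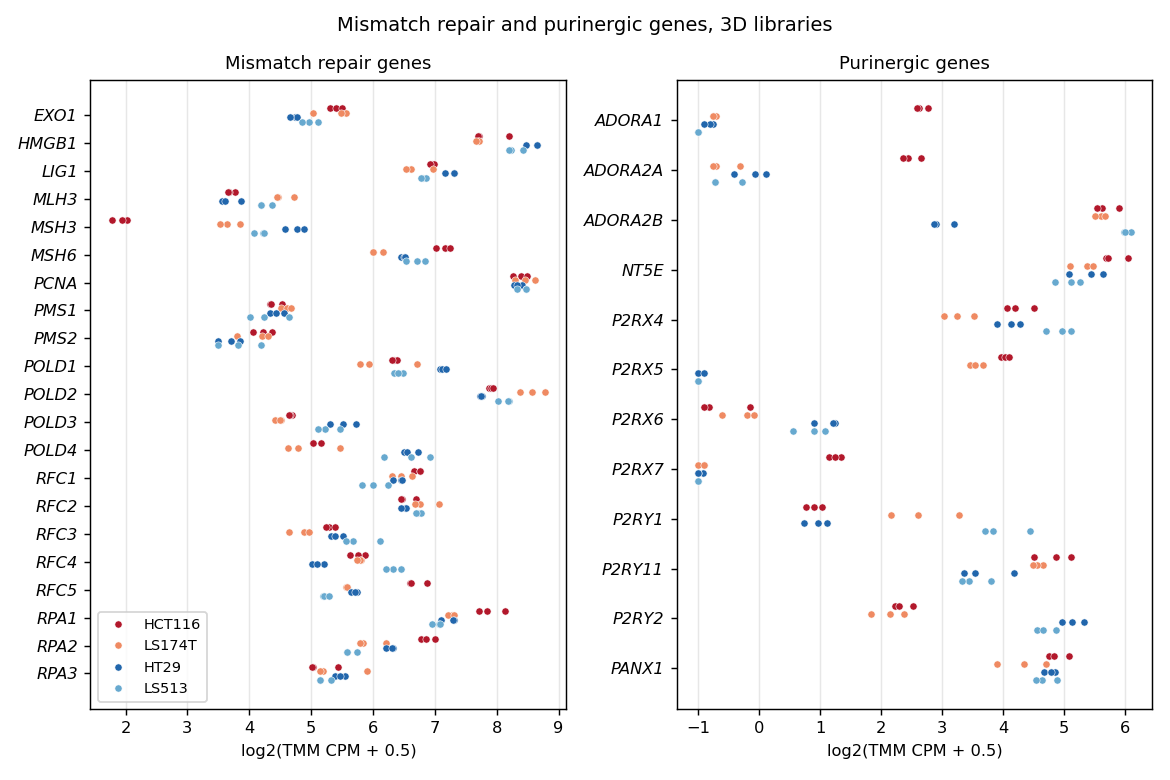
Levels of 21 of the mismatch repair genes and the 12 tested purinergic genes in 3D, as log2(TMM CPM + 0.5) on the horizontal axis, 1 point per library and 3 per line. For MSH3 the HCT116 points lie to the left of those of the other lines, and P2RX5 is near the bottom of the scale in HT29 and LS513.

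Genes with a coding microsatellite were of interest because a frameshift there can lower the transcript. From a list of 39 known targets of instability, 33 were tested. The list was not limited to genes with a long coding run: in MRE11 the longest was 7 bases. None was higher in all MSI libraries and 8 were lower, or 24.2% of those tested against 7.27% over all tested genes. The median log2 fold change of the list was -0.42, with 26 of 33 values below 0. The between-library fit called 2 higher and 7 lower in the MSI pair, beside 15.1% and 12.9% over all tested genes. Without TMM 5 of the 33 (15.2%) were lower and none higher, beside 5.89% lower and 10.1% higher over all tested genes.

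To extend this beyond the list, the longest run of a single base was read from the longest coding sequence of each of 14494 tested protein-coding genes in the GENCODE 29 annotation. Of the 61 genes with a run of 10 bases or more, 0 were higher and 11 (18.0%) were lower in all MSI libraries, and their median log2 fold change was -0.38. Of the 166 genes with a run of 9 bases, 8 (4.82%) were higher and 20 (12%) lower, with a median of -0.13. Among the 14267 genes with a run of at most 8 bases the shares were 8.98% higher and 8.25% lower, with a median of 0.07. Long runs were more frequent in long coding sequences, with a median length of 1398 bases up to a run of 8 and 2337 bases for a run of 9 or more. Within coding sequences of at most 3000 bases, 3.82% and 13.7% of the genes with a run of 9 or more were higher and lower, and in longer ones 3.12% and 13.5%. Without chromosomes 13 and 20, described below, 0 of 58 genes with a run of 10 or more were higher and 10 (17.2%) lower. Genes with a run of at most 8 were then 9.23% higher and 7.34% lower.

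The counts moved with the scaling and with 1 library. For a run of 10 or more, 1 gene (1.64%) was higher and 8 (13.1%) lower without TMM. With the size factors of DESeq2 these were 1 and 13 (21.3%), and without the second LS174T library 3 (4.92%) and 12 (19.7%). For a run of 9, 12 (7.23%) were higher and 11 (6.63%) lower without TMM. Genes with a run of at most 8 moved as well, to 10.9% higher and 6.72% lower without TMM. Their shares were 8.71% and 8.48% with the size factors and 10.7% and 9.53% without the second LS174T library. This grouping was chosen after values of these data had been seen and carries no test. The sequence of the transcripts in the 4 lines was not read, so whether these runs had shifted in HCT116 or LS174T is not known from these data.

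**Figure D3:**
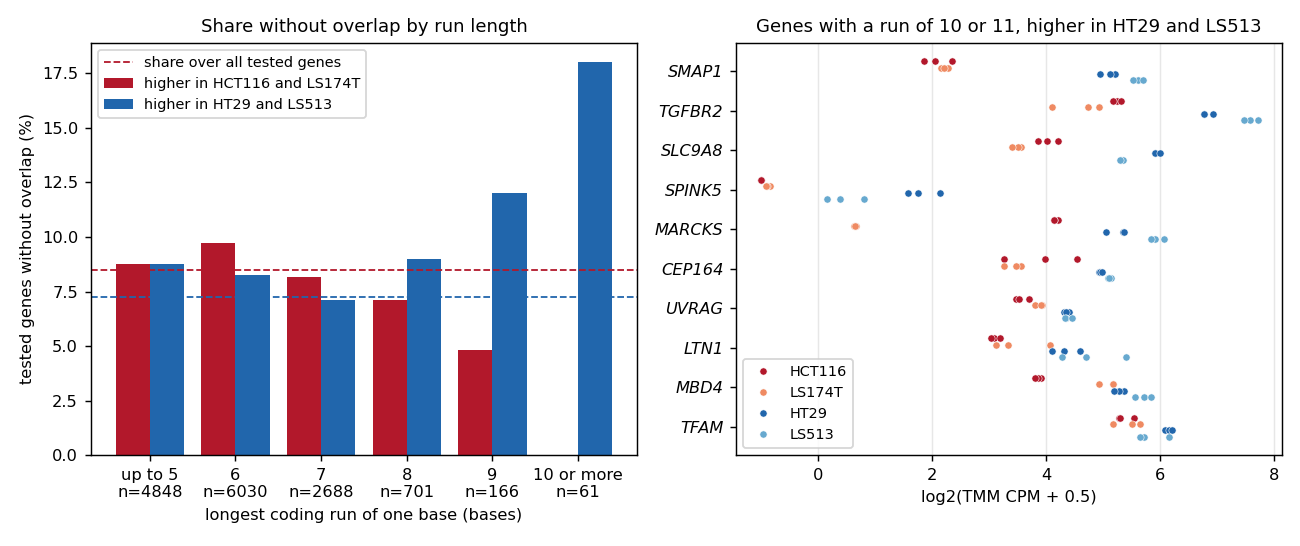
Left, percentage of tested genes without overlap between the pairs by the longest run of 1 base in the coding sequence, with dashed lines at 8.47% and 7.27%, the shares over all tested genes; the number of genes stands under each pair of bars. Right, log2(TMM CPM + 0.5) per library of 10 of the genes with a run of 10 or 11 that were higher in HT29 and LS513; SMAP1 shows the widest gap and TFAM, MBD4 and LTN1 the narrowest.

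The reference sequences of the runs are shown for 7 of these 11 genes, 5′ to 3′ on the coding strand with the run in capitals and 8 bases on each side, since the run is the feature the grouping rests on. They are from GENCODE 29 on GRCh38, with the exon counted in the transcript with the longest coding sequence. In UVRAG, SLC9A8 and TFAM the window crosses an exon junction and is not shown. Each of the 7 is a run of A.
SMAP1: agaaaaggAAAAAAAAAAggaagaga
TGFBR2: tatgaaggAAAAAAAAAAgcctggtg
SPINK5: agcagctgAAAAAAAAAAgaaagagg
MBD4: agccttgtAAAAAAAAAAgaaagatc
MARCKS: agaccccgAAAAAAAAAAAgaagcgct
CEP164: agaagaagAAAAAAAAAAAggaaaaga
LTN1: agtcaagtAAAAAAAAAAAtggtaagg

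The SMAP1 run lies in exon 6 at chr6:70798659-70798684 on the plus strand, and that of TGFBR2 in exon 4 at chr3:30650372-30650397 on the plus strand. That of SPINK5 lies in exon 26 at chr5:148120304-148120329 on the plus strand, and that of MBD4 in exon 3 at chr3:129436697-129436722 on the minus strand. The 11-base runs lie in exon 2 of MARCKS at chr6:113860026-113860052 (plus), exon 5 of CEP164 at chr11:117351924-117351950 (plus) and exon 10 of LTN1 at chr21:28966876-28966902 (minus). All coordinates include the 8 flanking bases.

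SMAP1, a GTPase-activating protein of vesicle budding, had the widest gap of these genes. It was at 4.62, 3.66 and 3.14 CPM in HCT116 and 3.99, 4.38 and 4.15 CPM in LS174T, against 36.6, 30.2 and 34.5 CPM in HT29 and 48.4, 45.6 and 51.7 CPM in LS513 (log2 fold change -3.35 ± 0.09, SE). Both lines of each pair lay close together. TGFBR2, the type II receptor for transforming growth factor beta and a classical target of instability, was at 37.3, 39.4 and 35.5 CPM in HCT116, 26, 16.6 and 29.9 CPM in LS174T, 108, 108 and 121 CPM in HT29 and 189.9, 177 and 209 CPM in LS513 (log2 fold change -2.29 ± 0.09). MARCKS, an actin-binding substrate of protein kinase C, was at 18, 17.1 and 17.2 CPM in HCT116 and 1.04, 1.09 and 1.07 CPM in LS174T, against 32.7 to 66.8 CPM (median 48.6) in the MSS pair. LS174T thus lay far below HCT116, and both lay below the MSS lines.

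Of the others, SLC9A8, a sodium-proton exchanger, was at 10.1 to 17.9 CPM in the MSI pair against 38.7 to 63.4 CPM in the MSS pair (log2 fold change -1.91 ± 0.07). SLC9A8 lies on chromosome 20, described below. CEP164, a protein of the distal appendages of the centriole, was at 9.06 to 22.7 against 30.1 to 34.7 CPM, with a wide spread within HCT116. UVRAG, which acts in autophagy, was at 10.6 to 14.8 against 19.5 to 21.5 CPM. SPINK5, a protease inhibitor of the epidermis, was low throughout, with 0 to 2 counts in the MSI libraries and 18 to 113 in the MSS libraries.

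LTN1, the ubiquitin ligase of stalled ribosomes, was at 7.69 to 16.4 against 16.8 to 41.6 CPM. MBD4, a glycosylase that removes thymine from G:T mismatches, was at 14.6, 14 and 13.5 CPM in HCT116 but 35.4, 29.9 and 35.6 CPM in LS174T, against 36 to 56.9 CPM in the MSS pair. TFAM, the packaging factor of mitochondrial DNA, was at 35.4 to 49.4 against 49.8 to 73.2 CPM. These 3 genes overlapped without TMM. From the list of known targets, MRE11, the nuclease of the double-strand break sensor, was at 7.05 to 13.6 CPM (median 10.2) against 23.5 to 49.7 CPM (median 38.2) (log2 fold change -1.83 ± 0.10). Its longest coding run was 7 bases, and the cause of its lower level was not tested. BRCA2, the mediator of homologous recombination, was at 9.26 to 17.4 CPM (median 12.6) against 27.7 to 44.8 CPM (median 32.8) (log2 fold change -1.39 ± 0.11), and lies on chromosome 13, described below.

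Genes of differentiated colonic cells were mostly lower in the MSI pair. Of 31 tested goblet cell and mucin genes, 0 were higher and 8 (25.8%) lower in all MSI libraries, and the median log2 fold change was -3.12. The between-library fit called 4 higher and 24 lower. Of 30 tested genes of absorptive colonocytes, 2 (6.67%) were higher and 7 (23.3%) lower, with a median of -4.10. The fit called 4 of these higher and 21 lower. Over all tested genes the shares without overlap were 8.47% higher and 7.27% lower. Those called by the fit were 15.1% and 12.9%. The epithelial markers, 10 in all, also summed to less in every MSI library than in any MSS library, and their part in these counts was not tested.

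Among the goblet genes, MUC1, a membrane mucin, was at 4.75, 2.22 and 1.37 CPM in HCT116 and had at most 3 counts in each LS174T library, against 13.7 to 84.3 CPM (median 36.6) in the MSS pair. MUC20, another membrane mucin, was at 1.01 to 5.02 against 43.1 to 364 CPM (median 180.1), with 42.8% of its exonic bases shared with MUC20-OT1 on the same strand and a near-identical copy elsewhere in the genome. CREB3L1, a transcription factor of secretory cells, was at 0.0669 to 5.58 against 36.9 to 82.4 CPM (median 53). BCAS1, a gene of chromosome 20, was at 0.276 to 1.86 against 8.14 to 97.4 CPM (median 45.3). The MSS lines were not alike: MUC20 was higher in LS513 than in HT29 in every library, and BCAS1 was the reverse.

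Among the absorptive genes, CEACAM6, another carcinoembryonic antigen family member, was at 17.3, 18.7 and 19.99 CPM in LS174T and at most 1 count in HCT116, against 235, 263 and 348 CPM in HT29 and 1131, 1062 and 1169.9 CPM in LS513. TSPAN1, a tetraspanin, was at 20.02 to 34.2 CPM (median 29) against 381 to 545 CPM (median 428) (log2 fold change -3.99 ± 0.13). In the other direction, CES3, a carboxylesterase, was at 4.28 to 50.5 CPM (median 19.8) in the MSI pair against 0.0693 to 1.99 CPM (median 0.87), and SLC26A2, a sulfate transporter, at 6.78 to 16.7 CPM (median 14.2) against 2.14 to 4.82 CPM (median 2.91). Of 10 epithelial markers, 3 (30%) were lower in all MSI libraries, beside 7.27% over all tested genes. KRT8 was at 1103 to 2583 CPM (median 2061) against 4361 to 9043 CPM (median 6684) and KRT18, its partner in simple epithelia, at 674 to 1076 CPM (median 953) against 1923 to 4809.6 CPM (median 2922). EPCAM, an epithelial adhesion molecule, was present in all 12 libraries and overlapped between the pairs. It was at 262 to 545 CPM in the MSI pair and 409 to 1816 CPM in the MSS pair, the highest in LS513.

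Of 29 epithelial-mesenchymal genes, 3 (10.3%) were higher and 5 (17.2%) lower in all MSI libraries, beside 8.47% and 7.27% over all tested genes. Their median log2 fold change was -0.65. The fit called 5 higher and 11 lower, beside 15.1% and 12.9% over all tested genes. Without TMM 4 (13.8%) were higher and 3 (10.3%) lower without overlap, beside 10.1% and 5.89% over all tested genes. CALD1, the actin-binding caldesmon, was at 88.2 to 214 CPM (median 134) in the MSI pair against 2.2, 2.59 and 3.74 CPM in HT29 and at most 2 counts in LS513. ACTA2, smooth muscle actin, which is also a stromal marker, was at 5.05 to 8.75 CPM (median 7.08) against 0.071 to 0.633 CPM (median 0.175). Of the list of 19 non-epithelial markers that holds it, 6 had at most 3 counts in every 3D library. Of the 10 tested, the fit called 3 higher and 4 lower in the MSI pair, again beside 15.1% and 12.9% over all tested genes. The part of other cells in the ACTA2 level was not tested. SPARC, a matricellular protein, was at 0.535 to 1.7 CPM (median 1.2) with 0 to 2 counts in the MSS libraries. On the epithelial side, ESRP2, a splicing regulator, was at 35.3 to 75 CPM (median 52.7) against 109 to 152 CPM (median 131), and OVOL1, a repressor of the mesenchymal state, at 30.6 to 39.8 CPM (median 36) against 57.6 to 145 CPM (median 71.5). CLDN4, a tight junction claudin, was at 354 to 678 against 720.04 to 1206 CPM, and ESRP1, the close relative of ESRP2, at 78.9 to 132 against 135 to 175 CPM, a gap that closed without TMM.

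Of 32 tested targets of p53, 8 (25%) were higher and 1 (3.12%) lower in all MSI libraries, against 8.47% and 7.27% over all tested genes. The median log2 fold change was 0.71, and the fit called 11 higher and 2 lower, against 15.1% and 12.9% over all tested genes. CDKN1A, the cell cycle inhibitor p21, was at 362, 349 and 372 CPM in HCT116 and 280.2, 353 and 221 CPM in LS174T, against 18.3, 44.8 and 14 CPM in HT29 and 120.2 ± 14.2 CPM (mean ± SD, n = 3) in LS513 (log2 fold change 2.53 ± 0.19). FAS, the death receptor, was at 17.8 to 22.7 CPM (median 19.1) against 3.91 to 8.66 CPM (median 5.07), and DDB2, a sensor of ultraviolet damage, at 39.4 to 67.7 CPM (median 59.2) against 17.7 to 20.5 CPM (median 18.8). CYFIP2, of the actin-regulating WAVE complex, was at 61.1 to 86.1 CPM (median 74.1) against 3.34 to 42.6 CPM (median 18). The gene with no overlap in the other direction was TP53I3, an oxidoreductase, at 5.27 to 17.5 in the MSI pair against 17.6 to 82.3 CPM in the MSS pair, whose gap closed without TMM.

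Interferon response genes had 6 of 49 (12.2%) higher and 2 (4.08%) lower in all MSI libraries, beside 8.47% and 7.27% over all tested genes. Their median log2 fold change was 0.85, and the fit called 22 higher and 6 lower, beside 15.1% and 12.9% over all tested genes. UBE2L6, the conjugating enzyme for ISG15, was at 77.9, 74.1 and 44.8 CPM in HCT116, 14.3, 16.2 and 14 CPM in LS174T and 1.63, 0.899 and 0.472 CPM in HT29, and had no count in LS513. USP18, which removes ISG15, was at 10.4 to 28.7 CPM (median 15) against 1.75 to 4.48 CPM (median 3.59). CMPK2, a mitochondrial nucleotide kinase, was at 8.46 to 14.8 CPM (median 11.1) against 2.05, 1.28 and 1.16 CPM in HT29 and no count in LS513. IFIT5, an RNA-binding effector, was at 12.7 to 51.7 CPM (median 32.1) against 0.52 to 8.85 CPM (median 3.69). The reverse was seen for GBP2, a guanylate-binding protein, at 1.35 to 5.02 CPM (median 1.52) in the MSI pair against 19.3 to 26.8 CPM (median 22), and for OAS1, which activates RNase L, at 29.95 to 54.4 CPM (median 42.6) against 66.7 to 158 CPM (median 99.6).

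Of 32 antigen presentation genes, 2 (6.25%) were higher and 1 (3.12%) lower in all MSI libraries, both shares below the 8.47% and 7.27% over all tested genes. The median was 0.44, and the fit called 8 higher and 5 lower, beside 15.1% and 12.9% over all tested genes. Without TMM 5 (15.6%) were higher and 1 (3.12%) lower without overlap, beside 10.1% and 5.89%. HLA-DMA, which loads peptide on class II molecules, was at 8.09 to 17.8 CPM (median 11.9) against 1.35 to 7.48 CPM (median 3.66). HLA-DRA, the class II alpha chain, was at 2.19, 2.71 and 2.77 CPM in HCT116 and 3 to 10 counts in LS174T, with 0 to 1 counts in the MSS libraries, so its LS174T level lay near the floor. ERAP2, the aminopeptidase that trims peptides for class I, was at 2.21 to 4.12 CPM (median 3.34) against 25.3 to 61.7 CPM (median 41.3) (log2 fold change -3.65 ± 0.12). Its level is known to depend on a common inherited haplotype, and the haplotypes of these lines were not read.

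For the lists that follow, the shares over all tested genes are again 8.47% higher and 7.27% lower without overlap. Wnt targets and crypt stem genes had 3 higher and 3 lower of 28, with a median of -0.60. CCND1, cyclin D1, was at 241 to 455 CPM (median 371) against 51 to 122 CPM (median 78.2) (log2 fold change 2.18 ± 0.09), and CD44, the hyaluronan receptor, at 510.1 to 598 CPM (median 567) against 206 to 343 CPM (median 275). DKK1, a secreted Wnt inhibitor, was at 413, 358 and 444 CPM in HCT116 but 11.5, 15.9 and 12.4 CPM in LS174T, against 3.02, 3.67 and 4.39 CPM in HT29 and no count in LS513. Lower in the MSI pair were SP5, a Wnt-induced repressor (0.46 to 1.4 against 2.46 to 8.6 CPM), NKD2, a Dishevelled-binding inhibitor (2.3 to 14.4 against 18.3 to 36.1 CPM), and TCF7, the nuclear partner of beta-catenin (40.9 to 53.4 against 66.1 to 101 CPM).

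Of 30 genes of RAS-MAPK feedback and the EGF ligands, 4 were higher and 2 lower, with a median of 0.38. EREG, the ligand epiregulin, was at 512, 492 and 583 CPM in HCT116 and 119, 118 and 119 CPM in LS174T, against 27.8 to 67.5 CPM (median 39.1) in the MSS pair. BTC, betacellulin, was at 5.72 to 8.81 against 2.56 to 5.06 CPM, and ETV5, a transcription factor induced by the pathway, at 28.4 to 61.5 against 18.5 to 23.2 CPM. ERBB2, a receptor of the family, was lower in the MSI pair, at 129 to 295 CPM (median 205) against 309 to 435 CPM (median 363), but overlapped without TMM. EPHA2, an ephrin receptor, was at 87.5 to 148 against 189.7 to 243 CPM.

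HOX genes encode the transcription factors that set position along the body axis. Of 34 tested, 4 were higher and 5 lower in all MSI libraries, with a median of -0.47. The higher ones were of the A and D clusters: HOXD8 was at 2.95 to 5.18 CPM (median 3.7) with 0 to 1 counts in the MSS pair, HOXA7 at 23.8 to 35.8 CPM (median 27.6) against 0.675 to 9.65 CPM (median 3.99), and HOXA9 at 49.2 to 63.2 CPM (median 50.5) against 23 to 36.4 CPM (median 27.7). HOXD3 had 5 to 12 counts in the MSI libraries and 0 to 1 in the MSS libraries, and shares 62.2% of its exonic bases with AC009336.2. The lower ones were HOXA10 and 4 genes of the B cluster on chromosome 17. HOXB9 was at 24.1, 25.2 and 21.7 CPM in HCT116 and at most 2 counts in LS174T, against 85.8 to 251 CPM (median 153) in the MSS pair. HOXB6 was at 2.61 to 11.4 against 22.9 to 46 CPM, HOXB3 at 2.88 to 8.62 against 15 to 58.8 CPM and HOXB5 at 1.82 to 7.75 against 9.39 to 16.8 CPM. In all 4 B genes LS174T lay below HCT116.

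Purinergic genes are the study's own subject: extracellular ATP acts on the P2X channels and the G-protein-coupled P2Y receptors, CD73 (NT5E) turns AMP into adenosine, and adenosine acts on the P1 receptors. Of 22 genes, 12 were tested, with 3 higher and 2 lower in all MSI libraries and a median log2 fold change of 0.72. The fit called 6 higher and 2 lower, beside 15.1% and 12.9% over all tested genes.

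Among the channels, P2RX5 was at 15.1, 15.9 and 16.5 CPM in HCT116 and 10.5, 12.2 and 11.1 CPM in LS174T, with 0 to 1 counts in the MSS libraries. It shares 41.6% of its exonic bases with the read-through transcript P2RX5-TAX1BP3. P2RX6 was low in all lines, at 0.0334 to 0.438 CPM in the MSI pair and 0.959 to 1.87 CPM in the MSS pair. P2RX4 overlapped, at 7.68 to 22.2 against 14.4 to 33.9 CPM. P2RX7 was detected above the floor in 1 line, with 2.03, 1.7 and 1.87 CPM in HCT116 and at most 1 count per library in the others. P2RX1 had no count in the MSI libraries and 3 to 10 in the MSS libraries, and P2RX2 had none in any of the 12 libraries. P2RX3 had at most 1 count per library.

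Of the P2Y receptors, P2RY2, which couples ATP and UTP to calcium release, was at 4.16, 4.41 and 5.21 CPM in HCT116 and 3.89, 3.06 and 4.7 CPM in LS174T, against 34.3, 30.6 and 39.4 CPM in HT29 and 28.5, 23.1 and 24.7 CPM in LS513 (log2 fold change -2.81 ± 0.11, SE). No MSI library came near an MSS library. P2RY11, an ATP receptor, was at 21.9 to 34.2 CPM (median 23.9) against 9.46 to 17.6 CPM (median 10.7), but 54.2% of its exonic bases are shared with PPAN and its read-through. P2RY1, the ADP receptor, overlapped, since LS174T and LS513 lay above HCT116 and HT29: 5.58, 3.97 and 9.18 CPM and 13.8, 12.4 and 21.2 CPM against 1.36, 1.21 and 1.54 CPM and 1.45, 1.66 and 1.16 CPM. P2RY4 and P2RY6 reached at most 3 and 10 counts in any 3D library, and P2RY12, P2RY13 and P2RY14 had none.

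Among the adenosine receptors, ADORA1 was at 6.28, 5.62 and 5.52 CPM in HCT116, while LS174T had 3 counts per library and HT29 1 to 3. Its lack of overlap therefore rests on values at the floor, and it overlapped with the size factors of DESeq2. ADORA2A was at 4.92, 4.61 and 5.78 CPM in HCT116 and 0.104 to 0.573 CPM in the MSS pair, with LS174T at 3 to 10 counts and HT29 and LS513 at 3 to 19 counts, and 56.8% of its exonic bases are shared with the read-through SPECC1L-ADORA2A. ADORA2B overlapped, with HT29 below and LS513 above the MSI lines. HT29 was at 6.91, 6.81 and 8.63 CPM, LS513 at 67.7, 62.5 and 63.3 CPM and the MSI pair at 44.8 to 59.3 CPM (median 48.4). ADORA3 had at most 2 counts per library. NT5E (33.7 to 65.1 against 28.5 to 49.1 CPM) and PANX1, the channel that releases ATP (14.4 to 33.2 against 22.7 to 28.8 CPM), overlapped. ENTPD1, the ectonucleotidase CD39, had at most 10 counts in any 3D library and was not tested.

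The genes without overlap were spread unevenly over the chromosomes. Gains of the long arms of chromosomes 13 and 20 are textbook events of chromosomally unstable colorectal cancer. On chromosome 13, 99 of 361 tested genes (27.4%) were higher in all MSS libraries and 10 (2.77%) in all MSI libraries, and the median log2 fold change was -0.58. On chromosome 20 these were 107 (20.4%) and 15 (2.86%) of 525, with a median of -0.49. The highest share of any other chromosome in the MSS direction was 10.6%, on chromosome 1. In the MSI direction the highest shares were 12.9% on chromosome 6 and 12.7% on chromosome 22.

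Along chromosome 20 the shift followed position. In the windows of 10000000 bases up to position 30000000, between 8.6% and 11.9% of tested genes were higher in all MSS libraries, and in the 4 windows beyond it between 23.4% and 27.2%. On chromosome 13, in the windows with at least 20 tested genes, the share ran from 7.14% to 41.4% with no such order. Elsewhere, among windows with at least 40 tested genes, the highest shares in the MSS direction were 25 of 99 genes (25.3%) from 120000001 to 130000000 of chromosome 3 and 47 of 214 genes (22.0%) from 150000001 to 160000000 of chromosome 1. In the MSI direction, 13 of 47 genes (27.7%) from 10000001 to 20000000 of chromosome 6 were higher in the MSI pair, the highest share in such a window. Windows are on GRCh38 and genes were placed by their start in the annotation.

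Each line was then set against the mean of the other 3 for genes with a mean of at least 1 CPM. The median log2 difference on chromosome 13 was -0.63 in HCT116, -0.36 in LS174T, 0.20 in HT29 and 0.69 in LS513. On chromosome 20 it was -0.26, -0.40, 0.44 and 0.24 in the same order. On both chromosomes the 2 lines of a pair lay on the same side. This also held, with the MSI lines above, on chromosomes 9, 10, 16 and 19. On chromosome 10 the medians were 0.20, 0.06, -0.03 and -0.24 in the same order. On some others the lines of a pair lay apart: on chromosome 7 the medians were -0.46 in HCT116 and 0.32 in LS174T. The shares on chromosomes 13 and 20 fell to 21.6% and 15.8% without TMM, with 5.89% over all tested genes. Copy number was not measured in these data.

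**Figure D4:**
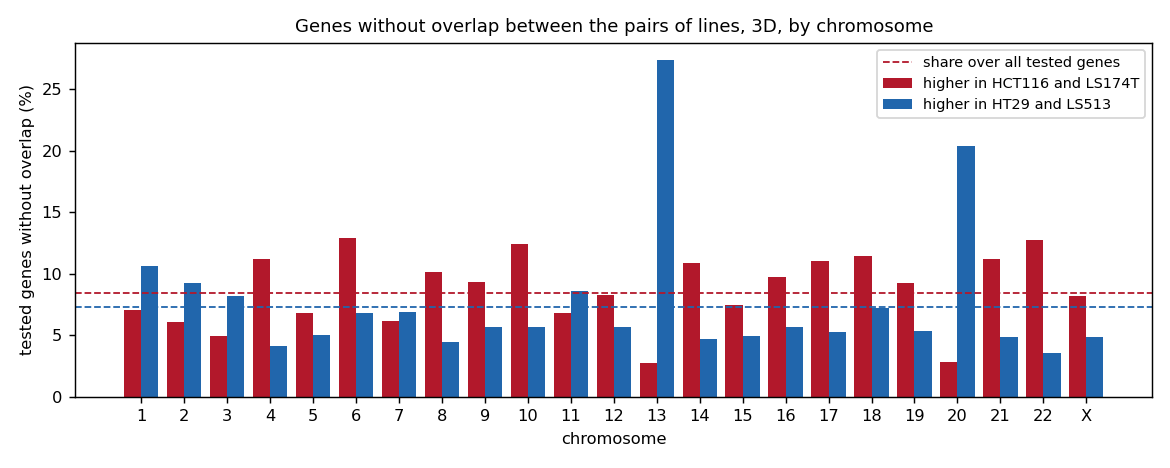
Percentage of tested genes on each chromosome that did not overlap between the pairs in 3D, red for higher in HCT116 and LS174T and blue for higher in HT29 and LS513, with dashed lines at 8.47% and 7.27%, the shares over all tested genes. The blue bars of chromosomes 13 (27.4%) and 20 (20.4%) stand above those of every other chromosome.

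The 2D libraries of the same lines were not used by the rule and show whether the pattern holds in a second growth condition, though not in further lines. In 2D 1865 genes (9.62%) were higher in all MSI libraries and 1652 (8.52%) in all MSS libraries. Of the 1643 genes higher in MSI in 3D, 1205 were also without overlap in 2D (73.3% of the 3D genes and 64.6% of the 2D genes), and 1638 had a 2D difference of the same sign. Of the 1410 higher in MSS, 1048 were (74.3% and 63.4%), and 1407 had the same sign. No gene was without overlap in opposite directions. Without TMM the genes without overlap in both conditions were 1507 and 801. Chromosomes 13 and 20 in 2D had 32.4% and 23.6% of their genes higher in all MSS libraries. Of the 61 genes with a coding run of 10 or more, 4 were higher and 18 lower in the MSI pair in 2D. Among the lists, 14 of the 32 p53 targets were higher and 1 lower in 2D. Of the 33 listed targets of instability, 1 was higher and 11 lower, and of the 31 goblet and mucin genes 0 and 8. The interferon list had a median log2 fold change of 0.24 in 2D against 0.85 in 3D, with 7 genes higher and 4 lower.

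**Figure D5:**
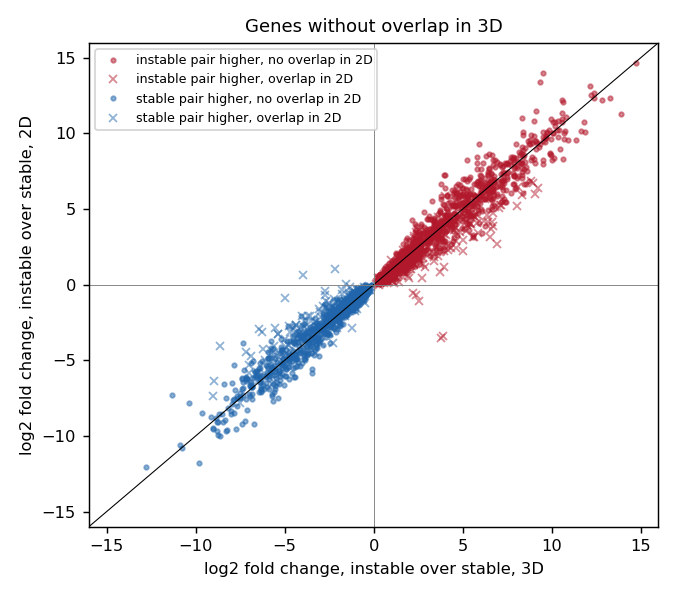
Log2 fold change of the MSI over the MSS pair in 3D (horizontal) and 2D (vertical) for the 3053 genes without overlap in 3D; each mark is 1 gene, dots without overlap in 2D as well and crosses with overlap, and the line marks equal values. Most genes lie along the line, and TERC with its duplicate entry RF00024 lies far below it.

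The size of the difference between the pairs was called different in 3D and 2D, by an interaction contrast of the same edgeR fit, for 78 genes toward MSI (0.402% of those tested) and 85 toward MSS (0.438%). With the replicate number as a block these counts were 44 and 52, and with all genes kept 145 and 130. Of these 163 genes, 48 were without overlap in 3D. KRT20 was among them: its level in 3D and 2D was 2.5 ± 0.412 and 0.646 ± 0.0372 CPM in HCT116 (mean ± SD, n = 3), 12.5 ± 2.77 and 0.817 ± 0.208 in LS174T, 690.1 ± 48.3 and 406 ± 95.4 in HT29, and 1334 ± 70.00 and 460.1 ± 58.4 in LS513. It was higher in 3D in all 4 lines and the log2 gap between the pairs was smaller there by 1.79. KRT20 and COL6A1 were named for their gaps in 3D, so no p is given for them.

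COL6A1 had a log2 gap that was 1.62 ± 0.34 (SE) larger in 3D. CA2, the carbonic anhydrase of mature colonocytes, was at 8.17 ± 0.658 CPM in 3D and 1.85 ± 0.189 in 2D in HT29 and at 10.9 ± 1.8 and 0.84 ± 0.305 in LS513 (mean ± SD, n = 3). In HCT116 it was lower in 3D, at 50.4 ± 7.29 against 85.3 ± 1.09, and LS174T had no count in 3D. SLC16A9, a monocarboxylate transporter, was at 6.57 ± 0.402 CPM in 3D and 14.5 ± 1.99 in 2D in HCT116 and at 5.44 ± 0.758 and 5.11 ± 0.762 in LS513, while LS174T and HT29 were near the floor. HSD17B14, a steroid dehydrogenase, was at 1.33 ± 0.186 and 0.616 ± 0.0161 CPM in HCT116 and near the floor elsewhere. For these 3 genes the fitted difference thus rests on lines with few or no counts.

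TERC, the RNA template of telomerase, carries no poly(A) tail of the usual kind and was low in these poly(A)-selected libraries. It was at 0.698 to 3.06 CPM (median 1.07) in the MSI pair and 0 to 0.391 CPM (median 0.174) in the MSS pair in 3D. Per library grown in 2D, HCT116 held 0 to 2 counts and LS174T 2 to 3. In 2D HT29 was at 1.32 ± 2.23 CPM, a mean that 1 library carried, with 71 counts against 1 in each of the other two, and that library was also the shallowest of the series at 18723942 counts. LINC01659 was at 10.1 ± 0.435 CPM in 3D and 5.29 ± 0.919 in 2D in LS174T and near the floor elsewhere. AL049836.1 was at 2.86 ± 0.26 and 2.37 ± 0.121 CPM in LS513 and 1.63 ± 0.212 and 1.27 ± 0.209 in LS174T.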

How the data were processed

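RNA sequencing of HCT116, LS174T, HT29 and LS513 in 2D and 3D was analysed as 24 libraries. Per the labels, poly(A) RNA was made into stranded libraries. The submitters' processing notes name bcl2fastq 2.18.0.12, Trim Galore 0.4.1, STAR and HTSeq 0.5.3 and the build hg19, and the study's methods name Ensembl 91, an annotation of GRCh38. Whether counting used strand is not given in the sources used here. The deposited values are counts per gene identifier for each technical replicate, which the authors made without normalization.

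Technical replicates were summed per library (8 per library, 7 for 1 HT29 library in 3D, whose other replicate was not analysed here). Symbols and coordinates came from GENCODE 29 on GRCh38, which named 57980 of 58243 identifiers. Genes that passed the expression filter of edgeR across all groups were kept (19387), scaled by TMM and fitted with the quasi-likelihood test of edgeR 4.0.16 in R 4.3.3, with 1 term for each line and growth condition. The fits were also run on simulated counts with known changes, whose spread between lines was a fixed setting and not taken from these lines. That run checks the code and not the error rates in these data. Contrasts were the mean of the MSI lines minus the mean of the MSS lines in 3D, in 2D, and the difference between these. Calls required a Benjamini-Hochberg adjusted p below 0.05 together with a change of more than 1 log2 unit. A fit with each line's libraries summed, DESeq2 1.42.0 and limma 3.58.1 were alternatives. Overlap between pairs was judged on TMM CPM, with a pseudocount of 0.5 for log2 margins.

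The named genes were the 12 with the widest gap in each direction, the mismatch repair and purinergic lists, up to 4 genes per direction without overlap from each of the other lists, the 4 largest 3D to 2D differences in each direction, and the genes with a coding run of 10 or more without overlap, a grouping added after values were seen. A few genes that meet this rule are not reported here. Members and lists were chosen with earlier results of these data known. Floors cover counting error only, and SDs and SEs the spread between libraries of a line.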

Additional observations from a re-analysis of the deposited data

Results flagged for a closer look

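For 17 genes named in the report the difference between the MSI and MSS pairs was itself different in 3D and in 2D, by the interaction contrast of the edgeR fit (Benjamini-Hochberg adjusted p under 0.05). Values are the log2 difference in 3D minus that in 2D, so that a positive value is a shift toward the MSI pair in 3D. Most of these genes were named for their values in 3D or for this difference itself, so the contrast shares values with the choice and p is given only for NT5E, which was named as a purinergic gene. The libraries of a line are the replicates in this contrast, and the lines themselves are 2 per pair.

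Among genes detected in all 4 lines, KRT20 had a value of 1.79, and its log2 fold change was -7.42 in 3D and -9.21 in 2D. CCND1 had 0.66, CLDN4 0.70 and ERBB2 -0.56. NT5E had 0.97 (edgeR adjusted p = 0.000724), with a log2 fold change of 0.33 in 3D and -0.64 in 2D, and HT29 at 41.8 ± 8.03 CPM in 3D against 82.2 ± 15.4 in 2D (mean ± SD, n = 3). OAS1 had 1.65, with HCT116 at 44.2 ± 12.5 CPM in 3D and 1.08 ± 0.157 in 2D. COL6A1 had 1.62.

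The others include a line at or near the floor in at least 1 growth condition. GBP2 had 2.38, with HCT116 at 2.98 ± 1.85 CPM in 3D and 0.0292 ± 0.0288 in 2D. SLC43A3 had -4.48 and AP000781.2, which shares exonic bases with it, -4.03. Both MSS lines held 0 to 5 counts of SLC43A3 in 3D. TERC had 7.28 and RF00024, the same RNA under a second identifier, 7.28. Per library in 2D, HCT116 held 0 to 2 counts of TERC and LS174T 2 to 3, while 1 HT29 library held 71. LINC01659 had 3.91, AL049836.1 2.78, SLC16A9 -4.92, CA2 -4.56 and HSD17B14 -4.52. For each of these the size of the value depends on how counts near 0 are modelled.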

How the results depend on the processing

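Counts are given as higher in MSI, then higher in MSS. With no fold cutoff the library fit called 6609 and 5839 genes, and with the replicate number as a block 2752 and 2517. The numbers were not taken to pair the samples, since not every same-numbered pair correlated above 0.1 in its deviations. The correlations were -0.211 to 0.556 for 3D libraries of different lines and -0.196 to 0.174 for 3D with 2D of a line. The 3 pairs of LS174T with LS513 were all above it, at 0.135, 0.556 and 0.536. For the difference between 3D and 2D the counts were 256 and 268 with no cutoff, 145 and 130 with all genes kept, and 44 and 52 with the replicate block. With lines as replicates the counts at an unadjusted p were 460 and 521 (edgeR), 1380 and 1065 (DESeq2) and 339 and 512 (voom), and DESeq2 called 549 and 381 after adjustment. A gap of at least 1 log2 unit left 301 and 259 genes without overlap. Leaving out a line, which loosens the rule by construction, gave 3824 and 2819 (HCT116), 4902 and 3856 (LS174T), 3286 and 3596 (HT29), and 3766 and 3456 (LS513).

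Leaving out each library in turn gave 2768 to 2959 and 2421 to 2677 calls in the library fit, 0 to 0 in the line fit, 52 to 85 and 60 to 101 for the 3D to 2D difference, and 1692 to 1929 and 1444 to 1635 genes without overlap. Of 131 tested named genes, 130 kept direction and side of the threshold with DESeq2 size factors, 130 with DESeq2, 129 with all genes and 128 with the block. Of the named genes, 98 were without overlap in these same libraries and many were picked for it, which favours a kept direction. Without TMM 8 of the 98 overlapped, and with the size factors 2 did. The log2 fold changes that turned sign were near 0 in 3D for the repair genes: RFC2 (-0.0487 in 2D, -0.0251 to 0.12 leaving out libraries), PMS1 (-0.25 in 2D), RPA3 (0.0125 in 2D, -0.21 to 0.0439), MSH6 (-0.0127 with size factors, -0.0467 with all genes, -0.0129 with DESeq2, -0.018 with the block, -0.065 to 0.0428), PCNA (-0.0079 with all genes, -0.0406 to 0.0812) and RFC4 (-0.0227 to 0.0838). In 2D NT5E was at -0.64, TERC -3.50, RF00024 -3.37, AL049836.1 -2.56, SLC16A9 2.72, CA2 0.18 and HSD17B14 3.39. The cause was not tested. Depth limits values at or under 3 counts, 0.0875 to 0.105 CPM in 3D.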
